A study of Mus musculus with 8 samples.

Results

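The genes described here are 43 genes of lipid droplets and fatty acid metabolism, taken by symbol from the 40840 genes listed for every library. They comprise droplet coat proteins, lipases, enzymes that build triglycerides, enzymes that make, desaturate, elongate and activate fatty acids, uptake and binding proteins, enzymes of mitochondrial oxidation, and the adipogenic factor Cebpa. RNA sequencing covered 8 primary cultures of mouse hepatic stellate cells in their myofibroblastic state (pMF-HSCs). The cells came from wild-type male C57BL/6J mice aged 15 to 18 weeks, were separated on a density gradient, sorted on retinol autofluorescence and cultured for 7 days in medium with 5% serum. Control cultures (n = 4) received the vehicle DMSO for 24 h, and OGTi cultures (n = 4) received 50 µM OSMI-1 over the same time, a compound that inhibits O-GlcNAc transferase (OGT), which attaches single O-GlcNAc sugars to proteins. No genetic alteration was used, no untreated culture was analysed here, and whether animals were pooled for a culture is not given in the sources used here.

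Lipid droplets store triglycerides and, in stellate cells, retinyl esters, under a coat of perilipins that limits access of lipases. Quiescent stellate cells are rich in such droplets and lose them as they turn into myofibroblasts. Fatty acids freed from droplets or taken up from outside are first joined to coenzyme A, and can then be stored again, desaturated and elongated, or carried into mitochondria by carnitine palmitoyltransferases and oxidised.

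Promoter sequences are shown for the genes that passed the test and whose window held a match to a searched motif, so that their sequence context can be set beside the values that follow. Each window runs from 250 bases before to 50 bases after the transcript start and is credited to RefSeq (GRCm38.p6 table), with its place found by exact match on GRCm39. Capitals mark matches, on either strand, to a CCAAT box (CCAAT), an E-box (CACGTG) or a TEAD site (GGAATG).
Plin2 (chr4:86588247-86588546, minus strand): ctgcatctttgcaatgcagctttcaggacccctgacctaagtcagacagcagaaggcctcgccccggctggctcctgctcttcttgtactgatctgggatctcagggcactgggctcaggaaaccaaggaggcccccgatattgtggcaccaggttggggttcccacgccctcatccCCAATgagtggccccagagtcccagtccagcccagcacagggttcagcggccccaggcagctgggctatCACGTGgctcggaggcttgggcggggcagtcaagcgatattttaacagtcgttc
Elovl5 (chr9:77824397-77824696, plus strand): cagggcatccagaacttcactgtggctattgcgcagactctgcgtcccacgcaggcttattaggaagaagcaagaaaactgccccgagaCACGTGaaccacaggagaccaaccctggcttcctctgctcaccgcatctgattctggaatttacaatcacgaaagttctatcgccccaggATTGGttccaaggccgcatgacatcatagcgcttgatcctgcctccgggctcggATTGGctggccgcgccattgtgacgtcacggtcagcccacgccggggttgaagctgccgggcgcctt
Cpt1a (chr19:3373051-3373350, plus strand): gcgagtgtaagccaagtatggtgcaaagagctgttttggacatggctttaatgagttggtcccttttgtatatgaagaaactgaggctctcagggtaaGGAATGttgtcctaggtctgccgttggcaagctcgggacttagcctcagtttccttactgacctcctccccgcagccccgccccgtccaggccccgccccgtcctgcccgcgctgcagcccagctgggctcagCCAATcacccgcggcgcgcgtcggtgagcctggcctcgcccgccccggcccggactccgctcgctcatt
Abhd5 (chr9:122180431-122180730, plus strand): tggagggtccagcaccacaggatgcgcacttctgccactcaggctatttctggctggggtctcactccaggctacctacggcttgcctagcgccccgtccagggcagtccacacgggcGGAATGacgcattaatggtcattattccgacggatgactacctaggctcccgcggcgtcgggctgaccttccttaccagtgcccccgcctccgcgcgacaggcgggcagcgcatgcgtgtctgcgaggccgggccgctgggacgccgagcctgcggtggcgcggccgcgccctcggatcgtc

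In the Plin2 window the CCAAT box began 73 bases and the E-box 4 bases before the start. Elovl5 held CCAAT boxes at 71 and 17 bases and an E-box at 161 bases before the start, Cpt1a a CCAAT box at 19 and a TEAD site at 152 bases, and Abhd5 a TEAD site at 132 bases. The GENCODE gene bounds of Elovl5 and Cpt1a begin upstream of these windows, which therefore lie inside the annotated genes. Of the 43 genes, 34 had a window, with 43 windows in all. The CCAAT box was in 39.5% of these windows and in 37.4% of all 32851 windows, the E-box in 11.6% and 7.15%, and the TEAD site in 11.6% and 14.7%. The sterol response element TCACNCCAC was in 1 window of the 43, that of Acsl1, and in 1.24% of all windows. Neither the C/EBP site TTGCGCAA, in 0.183% of all windows, nor the exact direct repeat of AGGTCA with 1 base between, which PPARs bind as heterodimers and which 0.0396% of all windows held, was found in these letters. A match is a description of the sequence and not a site of binding.

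Libraries held 30068876 to 37372420 expected counts. The 10 most counted genes took 6.73% to 7.76% of counts in control and 10.9% to 15.8% in OGTi libraries, and OGTi replicate 4 had 23746 genes with a count against 19035 to 20293 in the others. OGTi replicate 1 stood apart by gene length. Relative to the mean of the other OGTi libraries, the shortest 20% of genes had a median of 0.59 there on the log2 scale. The longest 20% had a median of -0.48. In that library, 18 of the 35 lipid genes with a control mean of at least 1 CPM (counts scaled to a common library size corrected for composition) had their lowest OGTi value. The sum of 8 stellate cell markers was 3176 to 6250 scaled CPM in control and 3361 to 5443 in OGTi, although Pdgfrb and Lrat among them fell. Most of it came from Col1a1 and Acta2, with means of 2425 and 2016 CPM in control and 1651 and 2149 in OGTi. Col1a1 (log2 fold change -0.85, 95% interval -1.51 to -0.19) and Hand2 (-0.84, -1.47 to -0.20) were negative but not called. The intervals of Des, Acta2, Reln and Lhx2 spanned both signs. All 4 adipocyte markers (Adipoq, Retn, Cfd, Lep) were under 1 CPM in every library, as were 5 of 6 hepatocyte markers, whose sum was 0.296 to 0.595 CPM in control and 0.846 to 1.87 in OGTi. Macrophage markers summed to 17.5 to 27.5 CPM in control and 25.5 to 57.8 in OGTi, with Cd68 called higher and Clec4f, Ptprc and Marco under 1 CPM throughout. Endothelial markers summed to 1.24 to 2.57 and 0.862 to 2.06 CPM, cholangiocyte markers to 48.9 to 81.4 and 54.1 to 93.9, and mesothelial markers to 1.03 to 11.9 and 1.12 to 14.1, in control and OGTi. Of these lists, Lyve1 and Krt19 fell and Sox9 and Cyp2e1 rose. The part of other cells in the values below was not tested. For gene length, an alternative fit removed each library's trend, and its values are given for lipid genes whose call it changed. How far gene length sets the values was otherwise not tested.

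Plin2, the gene of the main droplet coat protein, was lower in OGTi cultures, and Abhd5, the gene of a lipase activator, was higher. The lipase gene Pnpla2 was also called higher, but its groups overlapped and the call was lost when any 1 replicate was left out, while genes of de novo fatty acid synthesis did not pass the test. Of the 43 genes, 40 had a total of at least 10 counts and were tested; 4 rose (Pnpla2, Abhd5, Dgat2, Fabp3), 4 fell (Plin2, Scd2, Elovl5, Cpt1a) and 32 were not called (edgeR quasi-likelihood test blocked on replicate number, with Benjamini-Hochberg adjustment over 19963 genes and a limit of 0.05). Called genes made up 20.0% of those tested, beside 18.4% of all genes tested, with 8.13% of all genes higher and 10.2% lower, so the lipid genes as a group were called about as often as the background. The counts by role given below rest on 1 to 7 tested genes each. They are descriptions to be read beside these shares, with no test by role. Of all called genes 44.3% were higher, against 54.2% with upper-quartile scaling, 30.1% with library totals alone and 25.7% with limma on log2(TPM + 1). The median log2 fold change of the lipid genes was 0.07, beside 0.005 for all genes tested. All OGTi libraries lay above all control libraries for 5 of the 40 genes and below them for 6, beside 11.5% and 12.0% of all genes tested. In bulk RNA, fewer cells of a type and less RNA per cell cannot be told apart.

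**Figure D1:**
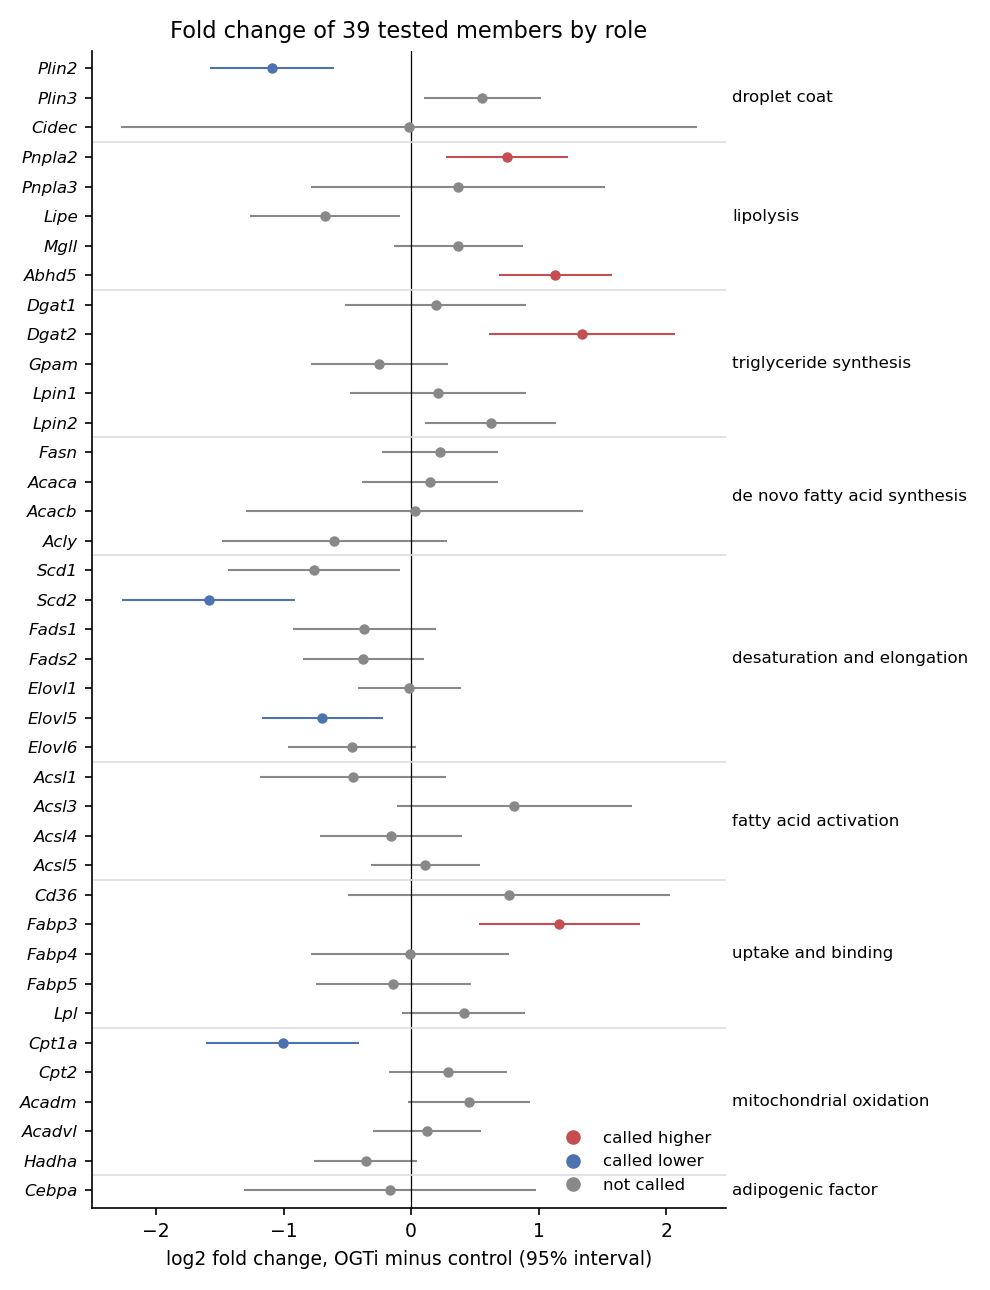
Log2 fold changes (OGTi minus control, horizontal axis) of 39 tested lipid genes grouped by role, with 95% intervals as lines. Red and blue points were called higher and lower, grey points were not called; Cidea is left out because it had no count in control. The 7 genes of desaturation and elongation all lie below 0, from -1.59 to -0.01 (Elovl1, which turned positive under other scalings), while lipolysis runs from -0.68 to 1.13.

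The droplet coat was dominated by Plin2, the perilipin of most cells outside fat tissue, which had the highest TPM (transcript abundance per gene length) of the 43 genes in control, at 664 ± 88.2 (SD, n = 4). Plin2 (ENSMUSG00000028494, GRCm39 chr4:86565912-86588459, minus strand) was at 692, 695, 567 and 515 scaled CPM in control replicates 1 to 4 and at 415.5, 428.5, 246 and 155 in OGTi replicates 1 to 4. Every OGTi library was below every control library, and replicate 4 was the lowest in each group. The level dropped from a mean of 617 ± 90.5 to 311 ± 133 scaled CPM (SD, n = 4 each), a log2 fold change of -1.09 ± 0.22 (SE, edgeR adjusted p = 0.00757).

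Plin3, a coat protein that moves between cytosol and droplets, did not pass the test (log2 fold change 0.56, 95% interval 0.10 to 1.02, edgeR adjusted p = 0.0912), although it was higher in 4 of 4 pairs. It was called with DESeq2 (0.61, adjusted p = 0.0334) and with the trend on gene length removed (0.59, adjusted p = 0.0359). The makeup of perilipin RNA was described by shares of TPM, with no test. Plin2 held 88.9%, 85.9%, 86.5% and 86.7% of summed perilipin TPM in control replicates 1 to 4 and 69.4%, 74.6%, 67.0% and 60.4% in OGTi. All OGTi shares were below all control shares, with means of 87.0% ± 1.30 in control and 67.8% ± 5.91 in OGTi (SD, n = 4 each), and Plin3 held nearly all of the rest. These shares follow from the levels of Plin2 and Plin3 and are not a separate result.

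The perilipin genes Plin1, Plin4 and Plin5 and the CIDE genes Cidea and Cidec were at or near the limit of detection. Plin1, the perilipin of adipocytes, had no count in any library, for which 3 counts per library is the limit that a count of 0 allows. Plin4 had a single count, in OGTi replicate 4, and Plin5 had 2 counts in control replicate 4 and 5 in OGTi replicate 1. None of these 3 genes reached the minimum for testing. Cidea had no count in control and 1, 3, 0 and 7 counts in OGTi replicates 1 to 4, and was not called (adjusted p = 0.192). Cidec, which with Cidea promotes droplet fusion, had 4, 0, 6 and 0 counts in control and 0, 7, 3 and 0 in OGTi. In all, the coat group had 1 gene lower and none higher of 4 tested.

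**Figure D2:**
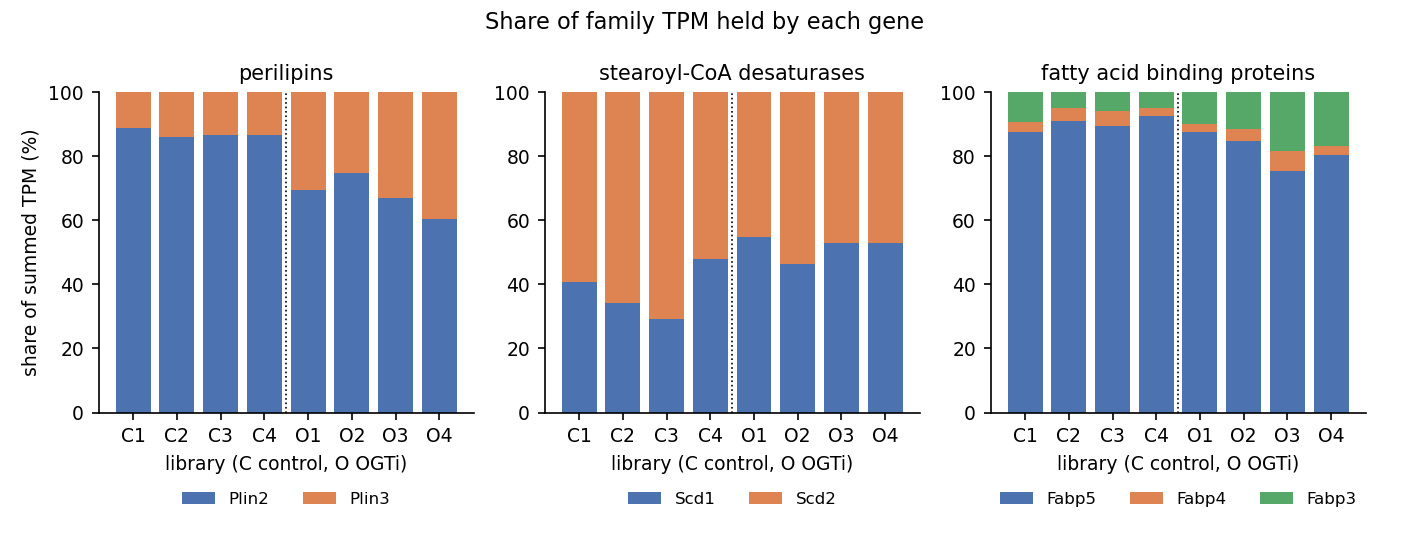
Share of summed TPM (vertical axis, %) held by each gene of 3 families in each library, control replicates C1 to C4 left and OGTi replicates O1 to O4 right of the dotted line. Plin2 takes 85.9% to 88.9% of perilipin TPM in control and 60.4% to 74.6% in OGTi; Plin1, Plin4 and Plin5 are too low to be drawn.

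In lipolysis 2 of 5 genes rose and none fell, with a median log2 fold change of 0.37, and the call of 1 of them, Pnpla2, held in only 6 of 14 other settings. Pnpla2 encodes adipose triglyceride lipase, which removes the first fatty acid from triglyceride, and Abhd5 encodes its coactivator CGI-58. Abhd5 (ENSMUSG00000032540, chr9:122180621-122222936, plus strand) was at 72.6, 81.4, 60.0 and 56.7 scaled CPM in control replicates 1 to 4 and at 152, 148, 163 and 125 in OGTi. The groups were far apart, with the lowest OGTi library above the highest control library. On the log2 scale the difference was 1.13 ± 0.20 (SE, edgeR adjusted p = 0.00405).

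Pnpla2 (ENSMUSG00000025509, chr7:141034404-141040656, plus strand) was at 36.0, 53.7, 38.1 and 58.0 scaled CPM in control replicates 1 to 4 and at 86.1, 76.3, 57.6 and 90.8 in OGTi. It was higher in 4 of 4 pairs, but OGTi replicate 3 lay just below control replicate 4, so that the groups overlapped. The log2 fold change was 0.75 ± 0.22 (SE, edgeR adjusted p = 0.0363). The call was lost without any 1 of the 4 replicates (0.59 to 0.86, adjusted p of 0.0558 to 0.115), with library totals alone (0.56, adjusted p = 0.104) without the block (0.74, adjusted p = 0.0562) and with limma on log2(TPM + 1) (0.41, adjusted p = 0.0938).

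Of the remaining lipases, Lipe (hormone-sensitive lipase) had a log2 fold change of -0.68 (95% interval -1.27 to -0.08, adjusted p = 0.110), Mgll (monoglyceride lipase) of 0.37 (-0.14 to 0.88) and Pnpla3 of 0.37 (-0.78 to 1.52), with Pnpla3 at under 1 CPM in every library. The balance of coat to lipase activator was described per library as a ratio of TPM. Plin2 over Abhd5 was 17.1, 15.4, 17.0 and 16.4 in control replicates 1 to 4 and 4.93, 5.22, 2.72 and 2.24 in OGTi. Control values hardly varied. Every OGTi value was below them, which follows from the changes of Plin2 and Abhd5 given above and is not a separate result.

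**Figure D3:**
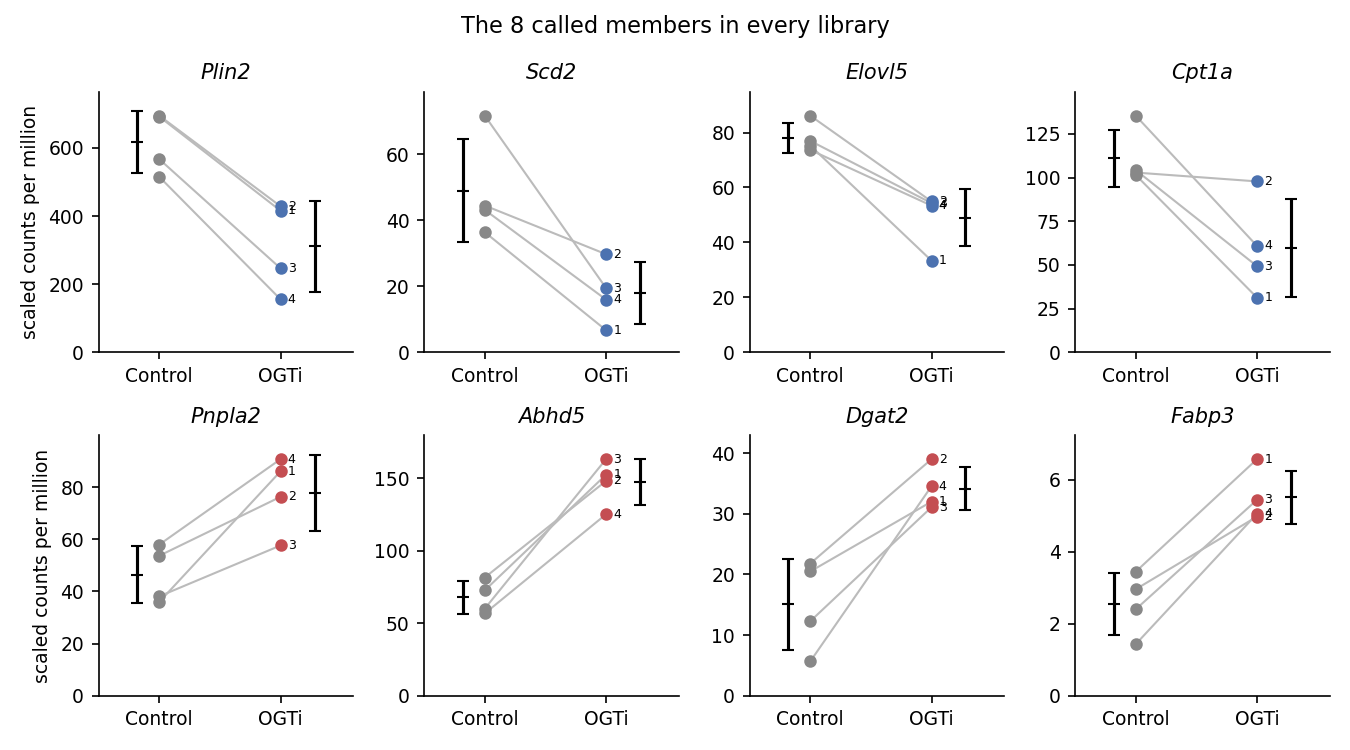
Scaled CPM (vertical axes, from 0) of the 8 called lipid genes in every library, with lines joining control and OGTi cultures of the same replicate number (printed beside OGTi points) and bars giving mean ± SD of each group. Plin2, Scd2, Elovl5 and Cpt1a are lower and Pnpla2, Abhd5, Dgat2 and Fabp3 higher in all 4 pairs; Pnpla2 is the only one of them whose groups overlap.

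Among enzymes of triglyceride synthesis, 1 of 5 rose and none fell, with a median log2 fold change of 0.21. Dgat2, which adds the last fatty acid to diacylglycerol, was at 20.5, 21.8, 12.3 and 5.65 scaled CPM in control replicates 1 to 4 and at 32.0, 39.0, 31.1 and 34.5 in OGTi (ENSMUSG00000030747, chr7:98802491-98831991, minus strand). OGTi libraries were close to each other and all above control, where replicate 4 was the lowest. The log2 fold change was 1.34 ± 0.33 (SE, edgeR adjusted p = 0.0182). Leaving out replicate 3 gave 1.34 (adjusted p = 0.0624) and leaving out replicate 4 gave 0.95 (adjusted p = 0.0562), and it was not called with limma on log2(TPM + 1) (0.96, adjusted p = 0.0816).

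Dgat1 catalyses the same step and is unrelated in sequence. It was at 7.77, 18.1, 16.9 and 5.40 scaled CPM in control and 15.7, 9.84, 16.5 and 8.57 in OGTi replicates 1 to 4, with overlapping groups and a log2 fold change of 0.19 (95% interval -0.52 to 0.90). Gpam, which starts glycerolipid synthesis at mitochondria, had a log2 fold change of -0.25 (-0.78 to 0.29). The phosphatidate phosphatases Lpin1 and Lpin2 had values of 0.21 (-0.48 to 0.90) and 0.62 (0.11 to 1.14, adjusted p = 0.0931). For Lpin2 all OGTi libraries (31.9 to 48.5 CPM) were above all control libraries (22.8 to 27.7), and it was called with DESeq2 (0.67, adjusted p = 0.0290), upper-quartile scaling (0.75, adjusted p = 0.0433) and with the length trend removed (0.86, adjusted p = 0.0102).

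None of the 4 genes of de novo fatty acid synthesis was called, with a median log2 fold change of 0.09. Fasn, the fatty acid synthase that builds palmitate, was at 82.4, 82.5, 77.1 and 120 scaled CPM in control replicates 1 to 4 and 72.5, 124, 94.8 and 138.5 in OGTi. The groups overlapped on both sides, and the interval of the log2 fold change ran from -0.23 to 0.68. Acaca, which makes malonyl-CoA in the cytosol, had an interval from -0.39 to 0.68, and Acacb, its form at mitochondria, was at 0.34 to 1.63 CPM. Acly, which makes cytosolic acetyl-CoA from citrate, had a log2 fold change of -0.60 (-1.49 to 0.28), and 1 library set its size: OGTi replicate 1 was at 42.4 scaled CPM, against 182 to 252.5 in the other OGTi libraries and 197 to 271 in control.

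All 7 genes of desaturation and elongation had negative log2 fold changes, with a median of -0.47, although Elovl1 turned positive with DESeq2, RLE and upper-quartile scaling. Of the 7, Scd2 and Elovl5 fell and 5 were not called. The shared sign holds for these members only. Outside the 43 genes, 6 of 15 tested acyl chain enzymes rose and none fell. They included Fads3 (log2 fold change 1.05, edgeR adjusted p = 0.00688), Hsd17b12 (0.74, adjusted p = 0.0273) and the elongase genes Elovl3, Elovl4 and Elovl7 described below. Scd1 and Scd2 encode stearoyl-CoA desaturases, which place the first double bond in saturated fatty acids. Scd2 (ENSMUSG00000025203, chr19:44281613-44295303, plus strand) was at 36.4, 44.5, 71.8 and 43.2 scaled CPM in control replicates 1 to 4 and at 6.66, 29.7, 19.5 and 15.9 in OGTi. Every OGTi library was below every control library, with replicate 1 the lowest of each group. Scd2 had a log2 fold change of -1.59 ± 0.31 (SE, edgeR adjusted p = 0.00606), the greatest fall of the 40 genes tested.

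Scd1 was at 22.0, 20.4, 26.2 and 35.0 scaled CPM in control replicates 1 to 4 and at 7.12, 22.8, 19.2 and 15.9 in OGTi. It was lower in 3 of 4 pairs with overlapping groups, and its log2 fold change of -0.76 (95% interval -1.44 to -0.09) had an adjusted p of 0.114 with edgeR; without the low-count filter it was -0.77 (adjusted p = 0.0489). The share of Scd2 in the summed TPM of both was 52.1% to 70.8% in control and 45.2% to 53.5% in OGTi, with overlap. Whether Scd1 and Scd2 differed in their response was not tested. As close paralogs they can share reads, which was not tested either, and the expected counts of both were whole in every library.

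Elovl5 elongates polyunsaturated fatty acids. It was at 75.3, 86.1, 77.0 and 73.7 scaled CPM in control replicates 1 to 4 and at 33.3, 54.9, 54.3 and 53.4 in OGTi (ENSMUSG00000032349, chr9:77818113-77891802, plus strand). OGTi replicate 1 lay far below the others, yet each of the 3 others was also below every control library. The log2 fold change was -0.70 ± 0.21 (SE, edgeR adjusted p = 0.0462), and the call was lost without any 1 replicate (-0.76 to -0.54, adjusted p of 0.0717 to 0.134), without the block (adjusted p = 0.0553) and with RLE (adjusted p = 0.0615) or upper-quartile scaling (adjusted p = 0.0916).

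Fads2, the delta-6 desaturase of the polyunsaturated pathway, was at 101, 98.3, 146 and 142 scaled CPM in control and 78.8, 109, 92.8 and 91.4 in OGTi replicates 1 to 4. It was lower in 3 of 4 pairs, with overlapping groups and a log2 fold change of -0.37 (95% interval -0.85 to 0.10). Fads1, the delta-5 desaturase, had a value of -0.37 (-0.93 to 0.19). Elovl6, which elongates palmitate to stearate, was lower in 4 of 4 pairs without overlap but was not called (-0.47, -0.97 to 0.04, adjusted p = 0.187). Elovl1, which elongates very long saturated chains and had the second highest TPM of the 43 genes in control (260 ± 17.3, SD, n = 4), had a log2 fold change of -0.01 with an interval from -0.42 to 0.39, and its sign turned with DESeq2, RLE and upper-quartile scaling.

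**Figure D4:**
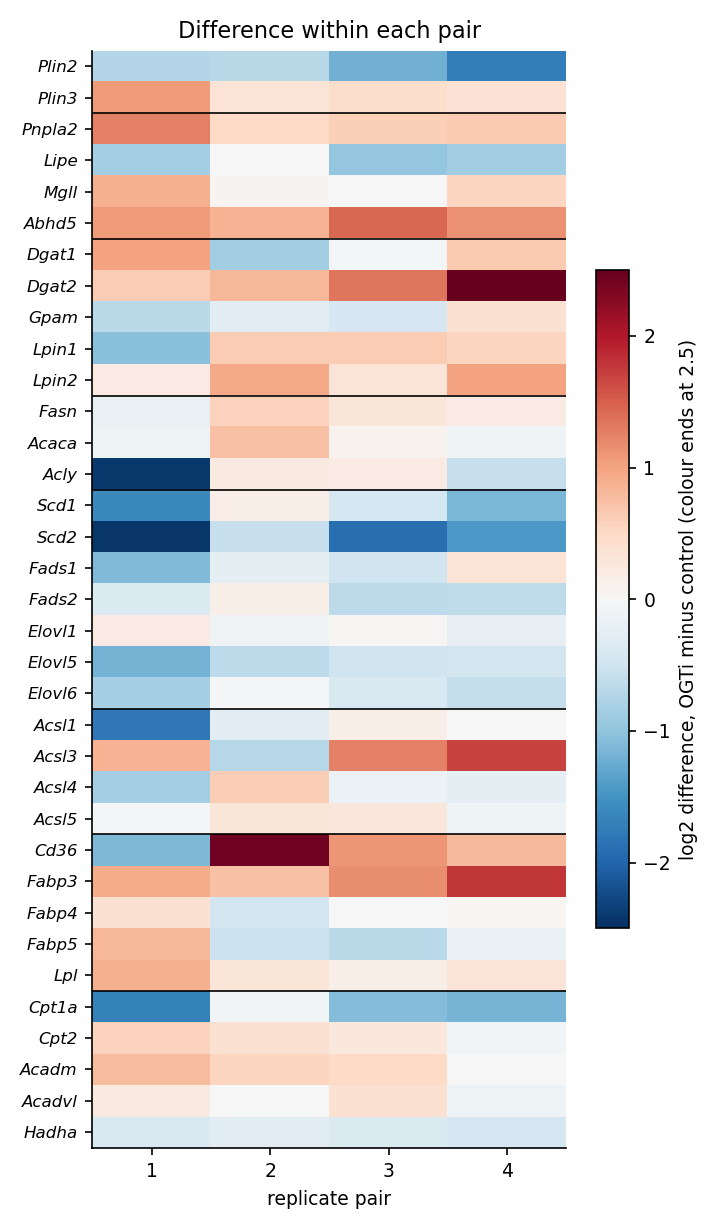
Log2 difference within each replicate pair (OGTi minus control, colour, red higher and blue lower, ending at 2.5) for 35 lipid genes with a control mean of at least 1 CPM, ordered by role. Abhd5, Dgat2 and Fabp3 are red and Plin2, Scd2 and Elovl5 blue in all 4 columns, and pair 1 holds the deepest blue of the rows of Acly, Acsl1 and Cpt1a.

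The acyl-CoA synthetases, which activate fatty acids, had no called gene among 4 and a median log2 fold change of -0.02. Acsl4, which prefers arachidonic acid, was at 123, 67.7, 119 and 156 scaled CPM in control and 67.8, 104, 108 and 131 in OGTi replicates 1 to 4. The groups overlapped and the interval ran from -0.71 to 0.40. Acsl5 held most of the summed TPM of the family, 60.2% to 72.5% in control and 61.0% to 77.2% in OGTi, with an interval of the log2 fold change from -0.31 to 0.54. Acsl1 had a value of -0.46 (-1.19 to 0.28), with OGTi replicate 1 at 7.38 CPM against 16.5 to 21.6 in the other OGTi libraries. Acsl3 had a value of 0.81 (-0.11 to 1.73, adjusted p = 0.212) and without replicate 2, in which control was at 3.36 CPM against 1.36 to 1.65 in the other controls, it was called (1.33, adjusted p = 0.0391).

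Of the uptake and binding genes, 1 of 5 rose and none fell, with a median log2 fold change of 0.41. Fabp3, the fatty acid binding protein of heart and muscle, was at 3.45, 2.96, 2.40 and 1.43 scaled CPM in control replicates 1 to 4 and at 6.58, 4.98, 5.45 and 5.06 in OGTi (ENSMUSG00000028773, chr4:130202388-130209259, plus strand). Every OGTi library was above every control library, at levels of a few CPM. The log2 fold change was 1.16 ± 0.28 (SE, edgeR adjusted p = 0.0186). Fabp3 was no longer called when replicate 3 (1.16, adjusted p = 0.0827) or 4 (0.96, adjusted p = 0.0825) was left out and with the length trend removed (0.80, adjusted p = 0.0806).

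Fabp5 was the main binding protein by TPM, with 87.4% to 92.5% of summed Fabp3, Fabp4 and Fabp5 TPM in control and 75.2% to 87.7% in OGTi, and had a log2 fold change of -0.14 (95% interval -0.74 to 0.47). Processed copies of Fabp5 in the genome can share its reads, so its level is uncertain. Such sharing was not tested, and the expected counts of Fabp5 were whole in every library. Fabp4, the adipocyte form, was at 0.65 to 2.24 CPM in control and 0.68 to 1.80 in OGTi. The share of Fabp3 in the summed TPM was 5.02% to 9.23% in control and 9.95% to 18.3% in OGTi, without overlap. This share follows from the levels of the same genes and is not a separate result.

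Cd36, a membrane carrier of fatty acids, varied more among cultures than between groups. It was at 0.44, 0, 5.09 and 1.51 scaled CPM in control replicates 1 to 4 and 0.17, 0.22, 11.0 and 2.67 in OGTi, highest in replicate 3 of both groups, with a log2 fold change of 0.77 and an interval from -0.50 to 2.03. Of the macrophage markers, Adgre1, Clec4f, Csf1r and Marco were also highest in replicate 3 of both groups, while Cd68 and Ptprc were not. The part of macrophages in Cd36 was not tested. Lpl, the lipase that frees fatty acids from lipoproteins, was at 34.3, 35.2, 33.5 and 36.9 scaled CPM in control and 63.4, 43.2, 37.2 and 46.1 in OGTi. All OGTi libraries were above all control libraries, with replicate 1 the highest, but the log2 fold change of 0.41 was not called (95% interval -0.07 to 0.90, adjusted p = 0.223).

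In mitochondrial oxidation 1 of 5 genes fell, with a median log2 fold change of 0.12 over the group. Cpt1a, which makes the acylcarnitines that enter mitochondria and is held to set the rate of oxidation, was at 101.5, 103, 104 and 135.5 scaled CPM in control replicates 1 to 4 and at 31.3, 97.8, 49.3 and 60.9 in OGTi (ENSMUSG00000024900, chr19:3371853-3437996, plus strand). OGTi replicate 2 lay just under the control values and the other OGTi libraries well below them. Cpt1a had a log2 fold change of -1.01 ± 0.27 (SE, edgeR adjusted p = 0.0276). The call was lost without the block (-0.89, adjusted p = 0.0748) and without replicate 1 (-0.77, adjusted p = 0.0745), 3 (-0.98, adjusted p = 0.102) or 4 (-0.94, adjusted p = 0.108).

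None of the other members of this group was called. Outside the 43 genes, Acads fell (log2 fold change -1.05, edgeR adjusted p = 0.0149) and Acadl rose (1.11, adjusted p = 0.0408), each without overlap of the groups. Cpt2, the inner membrane transferase, had a log2 fold change of 0.29 (95% interval -0.18 to 0.75), Acadm, the medium-chain dehydrogenase, of 0.46 (-0.02 to 0.94) and Acadvl, the very long-chain dehydrogenase, of 0.12 (-0.30 to 0.55). Hadha, a subunit of the trifunctional protein, was lower in 4 of 4 pairs without overlap (117 to 141 CPM in OGTi, 152 to 188 in control). Its log2 fold change of -0.36 was not called with edgeR (adjusted p = 0.211) but was with limma on log2(TPM + 1) (-0.68, adjusted p = 0.0221).

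Cebpa, a transcription factor of fat and liver cells, was at 1.36, 0.52, 0.16 and 0.35 scaled CPM in control and 1.03, 0.53, 0.06 and 0.52 in OGTi replicates 1 to 4. Both groups stayed near or under 1 CPM and overlapped, with a log2 fold change of -0.17 and an interval from -1.31 to 0.98.

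**Figure D5:**
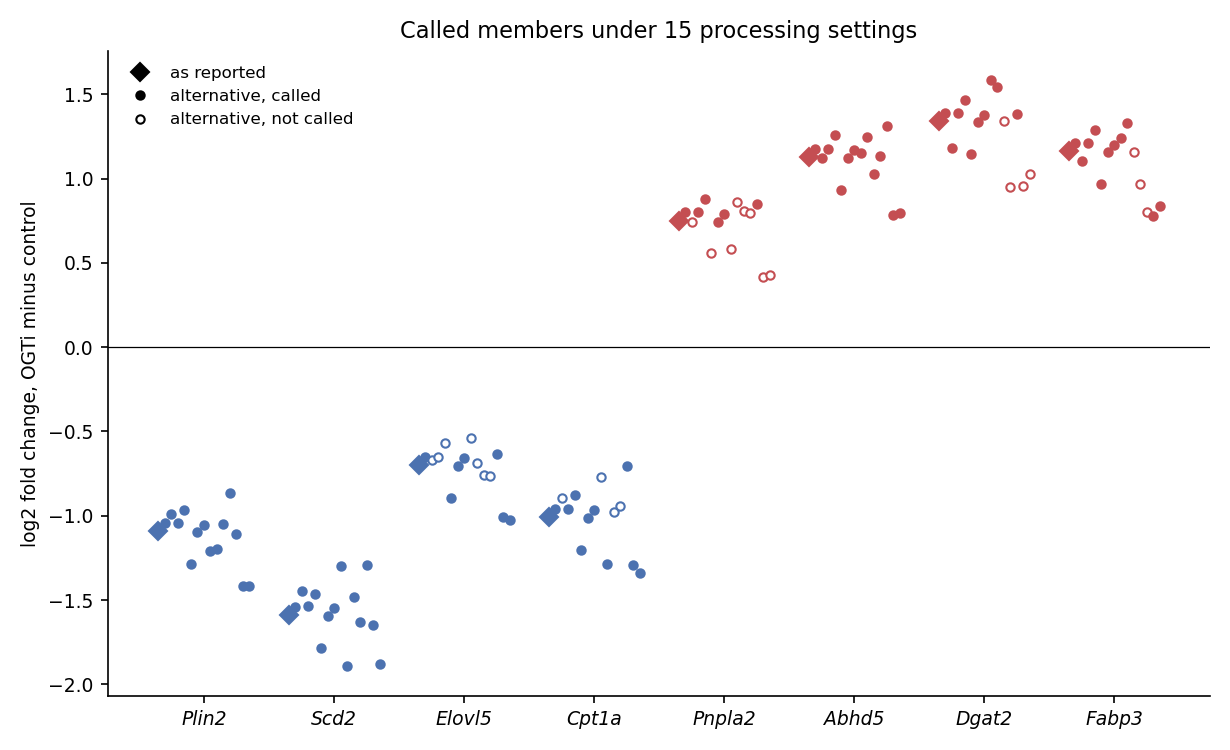
Log2 fold change (OGTi minus control, vertical axis) of the 8 called lipid genes as reported (diamond) and under 14 other processing settings (circles, filled where called, open where not). Plin2, Scd2 and Abhd5 are called under all 14, from -1.42 to -0.87, -1.89 to -1.29 and 0.78 to 1.31; no gene crosses 0.

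Across the 14 other settings Plin2, Scd2 and Abhd5 remained called in each, with adjusted p up to 0.0488, 0.0330 and 0.0349. Fabp3 was called in 11, Dgat2 and Cpt1a in 10, Elovl5 in 7 and Pnpla2 in 6. The TPM of the 43 genes summed to 2127 to 2341 in control libraries and 1351 to 1979 in OGTi libraries. TPM is not corrected for library composition, and all genes tested had a median change of -0.10 on log2(TPM + 1), against 0.005 in the edgeR fit. Plin2 made up 26.2% to 33.4% of the summed TPM in control and 10.1% to 21.4% in OGTi.

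Other genes of the same pathways were counted in 6 lists with 86 genes, of which 79 were tested. In all, 13 rose and 7 fell, or 25.3% beside 18.4% of all genes tested, with a median log2 fold change of 0.22. The balance turned under other settings, to 8 higher and 10 lower with library totals alone and to 5 higher and 14 lower with limma on log2(TPM + 1) or log2(TPM + 0.1). Among lipid regulators 1 rose and 2 fell of 11, in droplet assembly and lipase control 1 rose and 1 fell of 7, and among glycerolipid enzymes 2 rose of 12. In the list of acyl chain enzymes 6 rose and none fell of 15, in uptake 3 fell of 11, and in fatty acid oxidation 3 rose and 1 fell of 23. Called genes given by name alone were Ppard, Agpat4, Mcat and Acot13, which rose, and Slc27a1, which fell.

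G0s2, an inhibitor of the lipase encoded by Pnpla2, was at 6.84, 13.7, 14.3 and 6.41 scaled CPM in control replicates 1 to 4 and at 0.89, 1.69, 0.90 and 0.58 in OGTi. All OGTi libraries were far below all control libraries, and the log2 fold change was -3.34 (edgeR adjusted p = 0.000226). The ratio of Pnpla2 to G0s2 TPM was 0.682 to 2.32 in control and 11.6 to 40.5 in OGTi. It sets a gene called higher over a gene called lower, so it is not a separate result. Hilpda, also in the list of droplet assembly and lipase control, went the other way from G0s2. Its log2 fold change was 0.73 (edgeR adjusted p = 0.0416), with every OGTi library above every control library. Mean TPM of Hilpda was 111 in control and 147 in OGTi, against 29.4 and 2.38 for G0s2. Angptl4, a secreted inhibitor of lipoprotein lipase, was at 377 to 593 CPM in control and at 45.0 to 201.5 in OGTi (log2 fold change -2.53, adjusted p = 0.00185).

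Of the regulators, Srebf1, which drives genes of fatty acid synthesis, was at 44.8, 61.3, 47.0 and 52.3 scaled CPM in control and 15.9, 27.0, 17.0 and 16.0 in OGTi replicates 1 to 4. Each OGTi library was below each control library, and the difference was -1.46 on the log2 scale (edgeR adjusted p = 0.00165). Nr1h3, the liver X receptor alpha, had a log2 fold change of -1.99 (adjusted p = 0.0127), a call that was lost without replicate 3 (-1.61, adjusted p = 0.0541) or 4 (-1.62, adjusted p = 0.0697). Pparg, the adipogenic receptor, was under 1 CPM in every library, at 0.07 to 0.26 in control and 0.06 to 0.84 in OGTi, and was not called (1.34, adjusted p = 0.243).

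Elongases of very long chains outside the 43 genes, Elovl3, Elovl4 and Elovl7, were called higher. Elovl4 was at 7.98 to 13.4 CPM in control and 17.2 to 52.0 in OGTi (log2 fold change 1.54, edgeR adjusted p = 0.0136), Elovl7 at 0.89 to 2.84 and 5.89 to 6.90 (1.75, adjusted p = 0.00716), and Elovl3, at under 1 CPM in control, had a value of 2.70 (adjusted p = 0.00784). The call was lost for Elovl4 without replicate 3 (1.16, adjusted p = 0.0654) or 4 (1.46, adjusted p = 0.0700) and for Elovl3 without replicate 4 (2.93, adjusted p = 0.0517) or without the block (2.61, adjusted p = 0.0532). Gpat3, a glycerol-3-phosphate acyltransferase of the endoplasmic reticulum, was at 20.9 to 35.5 CPM in control and at 47.0 to 171 in OGTi (1.65, adjusted p = 0.00559). Acot2, a mitochondrial thioesterase, had a value of 1.30 (adjusted p = 0.0291). Its call was lost without replicate 3 (1.12, adjusted p = 0.119) or 4 (0.92, adjusted p = 0.109) and without the block (1.11, adjusted p = 0.0711). The close copy Acot1 can share reads with Acot2, which was not tested, and both had whole expected counts in every library. Fabp7, at no more than 1.32 CPM, had a log2 fold change of -2.28 (adjusted p = 0.0337), and the call was lost without replicate 2, 3 or 4 (-2.28 to -2.10, adjusted p of 0.0713 to 0.206) and without the block (-2.38, adjusted p = 0.0630).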

How the data were processed

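The authors made libraries from polyadenylated RNA, aligned reads with Bowtie2 2.3.5.1 and counted them with RSEM 1.3.1. The deposited tables give expected counts, estimated per gene and not always whole, and TPM, which the authors scaled by gene length and depth. A comparison table of the whole series, with the authors' counts, normalized counts, fold changes and p-values from DESeq2 1.36.0, was not used, including its 16 columns of per-sample values.

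Expected counts were rounded to whole numbers. The 19963 of 40840 genes with a total of at least 10 counts were tested with edgeR 4.0.16 (R 4.3.3; TMM scaling, glmQLFit, glmQLFTest) blocked on replicate number, with Benjamini-Hochberg adjustment over all of them, and called where the adjusted p did not exceed 0.05. Common biological variation was 0.342 (coefficient of variation). Scaled CPM are edgeR's CPM on the TMM-adjusted library size. Scripts were tested on simulated data. Libraries held 30068876 to 37372420 expected counts, so the spread between cultures set the precision, and limits for counts of 0 cover counting error only.

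The study's methods pair treated and control samples of a replicate and describe independent experiments. Correlations of deviations from group means across genes were 0.221, 0.298, 0.217 and 0.437 for same-numbered libraries and -0.494 to 0.292 for others.

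Members and lists were chosen with earlier results of these data known. Per-library values are given for every called member and for Plin2, Pnpla2, Dgat1, Fasn, Scd1, Scd2, Fads2, Acsl4, Cd36, Lpl, Cpt1a and Cebpa. Of the pathway lists, up to 5 called genes in each direction by size of log2 fold change are described, with Pparg and Srebf1 whatever their call. Values of Hilpda, Acads, Acadl, Fads3 and Hsd17b12, also called, are given beside the genes they relate to. Cell type markers were checked as lists. Genes were placed with GENCODE vM39 on GRCm39. Alternatives were DESeq2 1.42.0, limma 3.58.1 on log2(TPM + 1) and log2(TPM + 0.1), a fit without the block, other scalings and filters, each replicate left out, and removal of each library's trend on gene length.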

Additional observations from a re-analysis of the deposited data

Results flagged for a closer look

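In 9 of 101 groups of 4 libraries, 1 library lay far from the other 3 in scaled CPM by Dixon's criterion, where chance gives about 1 in 20 groups, or 5.1. Control replicate 4 was high for Fasn (120.2 against 77.05 to 82.54), Acacb (1.51 against 0.395 to 0.517), Cpt1a (135.5 against 101.5 to 104.3) and Elovl3 (0.595 against 0.0772 to 0.123). OGTi replicate 1 was low for Elovl5 (33.32 against 53.36 to 54.88). OGTi replicate 2 was high for Elovl6 (20.67 against 16.46 to 17.09) and Srebf1 (27.03 against 15.86 to 16.99). Control replicate 2 was high for Acsl3 (3.36 against 1.36 to 1.65), and control replicate 1 for Elovl4 (13.41 against 7.98 to 8.88).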

How the results depend on the processing

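Over single genes and the 14 alternatives, 604 values kept direction and side of the threshold, 43 lost a call, 9 gained one and 50 changed sign, all of these in members not called. The pairing mattered for counts: without the replicate block 3 members were higher and 2 lower (8 pathway genes higher, 5 lower). Leaving out 1 replicate pair gave 843 to 1433 genes higher and 1062 to 1744 lower, 1 to 4 members higher and 2 to 3 lower, and 5 to 11 pathway genes higher and 3 to 7 lower, with fewest without replicate 3 or 4; each of these fits holds fewer libraries. Limma on log2(TPM + 1) and log2(TPM + 0.1) gave 3456 and 3473 genes lower, 2 and 2 members higher, and 5 and 5 pathway genes higher and 14 and 14 lower. Library totals alone gave 8 pathway genes higher and 10 lower. The median of all genes was -0.19 with library totals, 0.13 with upper-quartile scaling and -0.10 and -0.24 with limma, so small changes of members are relative to it. Other than as given, the cause was not tested.

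Log2 fold changes that changed sign were, with library totals, Dgat1 -0.004, Acaca -0.05, Acacb -0.17, Acsl5 -0.083 and Acadvl -0.072. With limma on log2(TPM + 1) they were Cidec 0.005, Pnpla3 -0.005, Dgat1 -0.13, Lpin1 -0.084, Fasn -0.091, Acaca -0.12, Acacb -0.014, Acsl5 -0.21, Cpt2 -0.038 and Acadvl -0.20, and with log2(TPM + 0.1) Cidec 0.004, Dgat1 -0.13, Lpin1 -0.13, Fasn -0.10, Acaca -0.17, Acacb -0.098, Acsl5 -0.21, Cpt2 -0.039 and Acadvl -0.20. DESeq2 gave Elovl1 0.033 and Fabp4 0.036, RLE scaling Cidec 0.024, Elovl1 0.033 and Fabp4 0.037, upper-quartile scaling Cidec 0.086, Elovl1 0.11 and Fabp4 0.12, and edgeR's own filter Elovl1 0.023 and Fabp4 0.026. Removing the length trend gave Gpam 0.023 and Acsl4 0.15, and the fit without the replicate block Cidec 0.26. Leaving out 1 replicate gave Cidec -1.74 to 1.39, Dgat1 -0.087 to 0.57, Acsl4 -0.39 to 0.075, Acaca -0.02 to 0.24, Acacb -0.59 to 0.39, Elovl1 -0.089 to 0.063, Fabp4 -0.15 to 0.18, Fabp5 -0.45 to 0.045 and Cebpa -0.40 to 0.039.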
